A study of Mus musculus with 19 samples.

Results

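Some stretches of the macrophage genome hold far more accessible regions than others, and these peak-dense windows are described here. Chromosomes 1 to 19 (mm39) were divided into fixed windows of 50000 bp starting at base 1, and each peak was placed by its midpoint. Members were selected on the number of peaks alone: a window had to hold 15 or more. In all, 553 windows met this rule. They held 9198 peaks, which is 6.70% of the 137200 autosomal peaks and 6.55% of the 140383 peaks of the series. The other 128002 autosomal peaks served for comparison. Since peak number chose the windows, their number, runs and chromosomes are a description. Width, fold and significance did not enter the rule. Weak peaks counted in full towards the 15, however, so fold and significance cannot be taken as independent of membership. Dropping folds below 10 before counting left 0 windows, and dropping peaks under the median significance left 23. How far this sets the lower fold of members was not tested.

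The study measured open chromatin by ATAC-seq, a method in which a transposase cuts accessible DNA and tags it for sequencing, in primary mouse macrophages grown from bone marrow. The 9 wild-type samples came from mice carrying Csf1r-Cre, and the 10 Smarca5-/- samples from mice with Csf1r-Cre and floxed Smarca5. All cultures received 4-hydroxytamoxifen each day while they matured. Within each genotype the cells were untreated or were given LPS (10 ng/ml) or interferon beta (100 U/ml) for 1 or 2 h, which gives 10 groups, 9 of them with 2 samples and 1 (wild type, interferon beta, 1 h) with 1 sample. Csf1r directs Cre to cells of the monocyte and macrophage lineage. How completely Smarca5 was deleted in these cultures was not measured here. The peak list analysed gives 1 row per peak for all samples together. It therefore allows no comparison of genotypes, treatments or times, carries no replicate error and shows no depth per sample, and every difference below is between sets of peaks within that list and was given no p-value.

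Accessible regions mark DNA where nucleosomes are displaced or loosely held, which includes promoters, enhancers and sites bound by insulator proteins. In macrophages the lineage factor PU.1, with C/EBP and AP-1 partners, opens many enhancers, and genes central to the cell's identity or to its response to microbes are often served by several enhancers close together. Smarca5 encodes SNF2H, an ATPase of the ISWI family that slides nucleosomes and spaces them evenly. The windows resemble enhancer clusters only in the density of their peaks. No histone mark and no gene annotation of mm39 was used here, so whether a given peak is an enhancer or a promoter was not tested, and the windows are called dense windows and not enhancer clusters.

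One member window stood apart from the rest. Peaks covered between 1766 and 19870 bp of a dense window, with a median of 3848 bp, or 7.70% of the window. The top value came from chr9:3000001-3050000, where 20 peaks with a median width of 631 bp covered 39.7% of the window. The next highest cover was 14.5%, in the window on chr13:23700001-23750000. The chromosome 9 window also held the widest member peak, of 2744 bp at a fold of 17.5. The median fold of members minus that of other peaks was -2.76 both with this window and without it.

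Dense windows formed the thin upper end of a falling distribution. They made up 2.12% of the 26108 autosomal windows that held any peak. The number of windows fell from 279 with 14 peaks to 193 with 15, 148 with 16, 79 with 17 and 53 with 18. Windows of 15 or 16 peaks were 341 of the 553, and only 54 held 20 or more. The densest held 26. There was no gap or second mode at the threshold of 15.

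**Figure D1:**
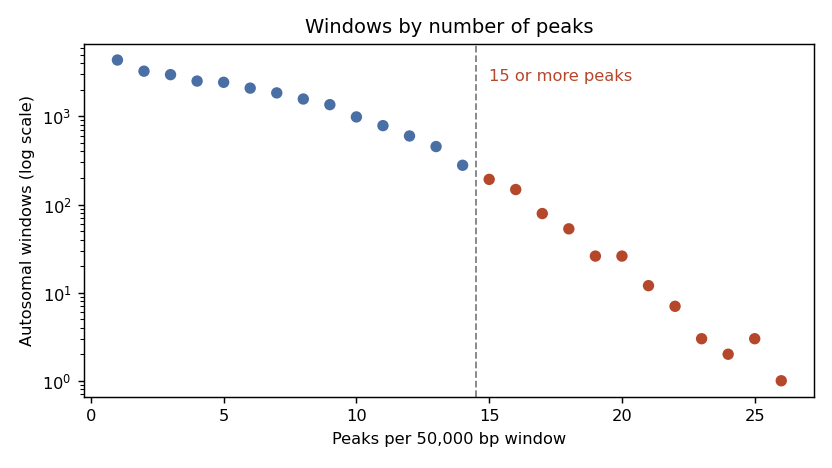
Number of autosomal 50,000 bp windows (vertical axis, log scale) by the number of peaks they hold (horizontal axis); red points are windows of 15 or more peaks. The numbers fall from 279 windows with 14 peaks and 193 with 15 to 1 window with 26, with small exceptions: 26 windows each had 19 and 20 peaks, and 2 had 24 but 3 had 25.

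All 19 autosomes had dense windows, but unevenly. Chromosome 19 had the highest rate, 32 dense windows or 4.08 per 100 windows holding a peak. Chromosome 11 followed with 59 windows (3.72 per 100) and chromosome 2 with 67 (3.14 per 100), the largest number on any chromosome. Together chromosomes 2 and 11 held 22.8% of the dense windows against 14.2% of the windows with a peak. The lowest rates were on chromosome 18 with 9 windows (0.970 per 100), chromosome 16 with 12 (1.19 per 100) and chromosome 10 with 21 (1.43 per 100). The median chromosome had 1.93 per 100. Per 100 Mb between the first and the last peak, the same 3 chromosomes led, with 55.1 on chromosome 19, 49.7 on chromosome 11 and 37.5 on chromosome 2. Members were 11.8% of the peaks of chromosome 19 and 3.36% of those of chromosome 18.

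Most dense windows were single. The 553 windows formed 490 runs of adjacent windows: 437 single windows, 43 pairs and 10 runs of 3. No run was longer than 3 windows, or 150 kb. Runs of 2 or 3 took up 116 windows (21%) and 1966 peaks. Their peaks had a median fold of 6.80, against 7.41 for the 7232 peaks of single dense windows. Fold here is the authors' enrichment value for a peak, in the signal column of the file, where MACS2 writes the pileup over its local background.

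Dense windows also lay in busier surroundings. The 957 windows that flanked them without being dense held a median of 9 peaks (quartiles 6 and 11), against 4 over all windows with 1 to 14 peaks. Of the flanking windows, 39.9% held 10 to 14 peaks, compared with 12.2% of all windows with 1 to 14, and 8 held none. Another dense window began within 1 Mb for 336 of the 553 (60.8%), and the median distance from the start of one to the start of the nearest other was 0.5 Mb. The richest megabases each held 5 dense windows: chr2:90000001-91000000, with 88 peaks in them, and chr2:167000001-168000000, with 81. Peaks in the flanking windows had a median fold of 9.20, between the members and the 10.1 of the remaining peaks.

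Of the 10 runs of 3 windows, the one with most peaks was on chr11:117800001-117950000, with 15, 21 and 22 peaks. Its 58 peaks had a median fold of 4.77, and 30 of them had a fold below 5. Its strongest peak reached a fold of 26.8 at its left end (117803618-117803973), where it was the only one at 20 or more. The run on chr11:83400001-83550000 held 57 peaks (18, 18 and 21) with a median fold of 7.15, and its strongest peak, 611 bp wide, had a fold of 25.6. On chr11:119250001-119400000, 56 peaks had a median fold of only 3.21, and 39 of them were below 5.

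The run at chr2:83500001-83650000 also held 56 peaks, and the last of its windows had 25 of them. The median fold of that run was 5.34, and the next window held 0 peaks, so this run ended abruptly. On chr13:63350001-63500000, 53 peaks had a median fold of 4.27. The run on chr2:90250001-90400000 held 50 peaks with a median fold of 4.85 and began directly after a window with 0 peaks. The other 4 runs of 3 held 46 to 48 peaks, and the highest median fold among all 10 was 8.56, on chr2:30950001-31100000. That value is still below the autosomal median of 9.84.

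Over all peaks, the median width hardly differed between members and other peaks. Their median width was 194 bp (quartiles 149 and 296), against 196 bp (lower quartile 153) for other autosomal peaks. Members were narrower by the median on 11 chromosomes, wider on 7 and equal on 1, and the difference averaged -2.42 ± 7.68 bp (SD, n = 19 chromosomes). The median width therefore differed by less than its spread between chromosomes. At equal numbers of other peaks within 5000 bp, members were wider by the median at every number. The medians were 267 and 207 bp with 0 such peaks, and 168 and 165 bp with 6 or more. By fold the order varied, with 178 bp for members and 181 bp for others below 5, and 321 and 244 bp from 15 to 20. Wide peaks, of 800 bp or more, were 75 of the members (0.815%, Wilson 95% interval 0.651% to 1.02%), beside 0.974% of all autosomal peaks. Here and below, such intervals cover counting error only and treat peaks as independent.

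Members had lower fold enrichment than other peaks. Their median was 7.29, with quartiles of 4.93 and 11.4, and the median of other autosomal peaks was 10.1, with quartiles of 6.86 and 16. The median was lower for members on 19 of 19 chromosomes, and the difference averaged -2.70 ± 0.361 (SD, n = 19 chromosomes). It ran from -3.54 on chromosome 11 to -2.00 on chromosome 1, so the chromosomes did not overlap: the highest member median, 8.06 on chromosome 1, was below the lowest median of other peaks, 9.84 on chromosome 5. The chromosomes come from the same libraries and are not biological replicates. Fold fell steadily with window density, from a median of 10.9 in windows of 1 to 4 peaks to 10.3 with 5 to 9, 8.95 with 10 to 14 and 5.73 in the 54 windows of 20 or more.

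**Figure D2:**
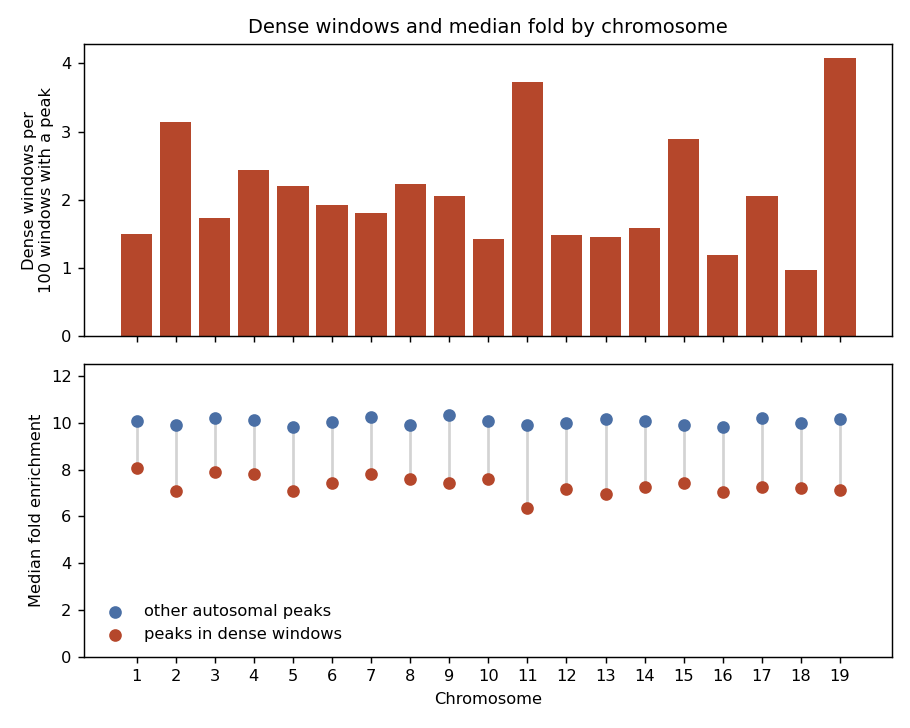
Top, dense windows per 100 windows that hold a peak, by chromosome; bottom, median fold enrichment of peaks in dense windows (red) and of other autosomal peaks (blue), with a grey line joining the 2 medians of a chromosome. Chromosomes 19, 11 and 2 have the most dense windows for their size, and the red point lies below the blue one on all 19 chromosomes.

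Low folds were more frequent and high folds less frequent among members. A fold below 5 was found for 2377 members, or 25.8% (Wilson 95% interval 24.96% to 26.75%), where 10.4% of all autosomal peaks were that low. A fold of 20 or more was found for 571 members, or 6.21% (5.73% to 6.72%), where 15% of all autosomal peaks were that high. At every width the members were lower. Among peaks under 150 bp the medians were 6.31 and 8.26, among those of 150 to under 300 bp they were 6.82 and 9.31, among those of 300 to under 600 bp 11.5 and 16.9, and among those of 600 bp or more 14.7 and 21.3. The difference in fold was widest among the peaks of 600 bp or more.

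Dense windows held on average fewer peaks with a fold of 20 or more than windows of 10 to 14. The rule had given them more peaks, 16.6 on average against 11.4. A window of 10 to 14 peaks held on average 1.28 ± 1.08 peaks (SD over 3107 windows) with a fold of 20 or more, and a dense window 1.03 ± 1.03 (SD over 553 windows). The mean was 1.11 with 5 to 9 peaks and 0.611 with 20 or more. Right at the threshold it was not lower, with 1.21 in windows of exactly 15 peaks and 1.09 in windows of exactly 14. At a fold of 10 or more the order of dense windows and windows of 10 to 14 was reversed. A dense window held 5.24 ± 2.10 such peaks and a window of 10 to 14 held 4.94 ± 1.74 (SD over windows). As shares of peaks, a fold of 10 or more was reached by 31.5% of members and 43.2% of the peaks in windows of 10 to 14, where the share over all autosomal peaks was 49.1%. A fold below 5 was found for 25.8% and 14.8%. Folds from 5 to 10 took nearly equal shares, 42.7% and 42.1%, close to the 40.5% of all autosomal peaks. Of the dense windows, 202 held 0 peaks at a fold of 20 or more, 192 held 1 and 159 held 2 or more, with 6 as the most.

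By significance the order was mostly the opposite. The median −log10 q, the authors' measure of how unlikely a peak's reads are under the local background, was 53.2 for members (quartiles 24.5 and 136) and 45.0 for others (22.3 and 115). It was higher for members on 18 of 19 chromosomes, and about equal on chromosome 16, with 43.17 for members and 43.24 for others. The median rose with density, from 37.7 in windows of 1 to 4 peaks to 45.8 and 51.5 in the next 2 classes. In windows of 20 or more it was 45.8. Wide peaks went the other way: from 600 bp the median −log10 q was 302 for 275 members and 424 for 4979 others, whereas it was higher for members in the 3 narrower classes. The upper quartile of −log10 q, 117, which by its definition 25% of all autosomal peaks reach, was reached by 28.6% of members (Wilson 95% interval 27.7% to 29.5%). The share in windows of 10 to 14 was 28.1%, so the 2 classes were nearly equal by this measure.

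**Figure D3:**
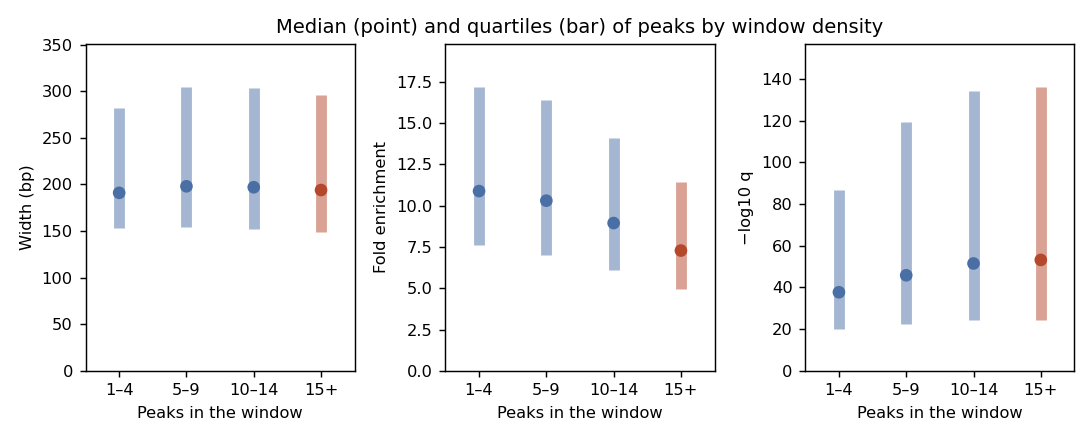
Width in bp, fold enrichment and −log10 q of autosomal peaks by the number of peaks in their window; points are medians, bars run from the lower to the upper quartile, and windows of 15 or more peaks are red. Width is level at 191 to 198 bp, fold falls from 10.9 to 7.29, and −log10 q rises from 37.7 to 53.2.

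At equal fold the gap in significance was large. Among peaks with a fold from 10 to 15, the median −log10 q was 128 for 1577 members and 52.4 for 28765 others, a ratio of 2.45. The median folds of these 2 sets were 12.04 and 12.08, but their widths differed, with medians of 228 bp for members and 185 bp for others. The part of width in the ratio was not tested. The ratio was 1.496 for folds below 5, 2.08 from 5 to 7.5, 2.23 from 7.5 to 10, 2.21 from 15 to 20 and 1.36 at 20 or more. The bands at the ends were not matched for fold. Their median folds were 3.86 for members and 4.23 for others below 5, and 23.4 and 25.1 at 20 or more. In the band from 10 to 15 the lower quartile of the members, 72.9, was above the median of the others. As background, in the Poisson test that MACS2 applies, the same fold gives a larger −log10 q where the local background is higher. The list gives neither the reads nor the background of a peak, so the part of the local background in the lower folds was not tested.

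Fold was lower the more crowded a peak's own surroundings were, among members and other peaks alike. The nearest peak lay a median of 827 bp from a member (quartiles 351 and 1804) and 2304 bp from another peak (717 and 5685). Members had a median of 3 other peaks within 5000 bp of their midpoint, and other peaks a median of 1. With 2 such neighbours the median fold was 8.35 for 2230 members and 9.12 for 27168 others. With 4 it was 6.43 and 6.85, and with 6 or more it was 4.83 and 5.18. At equal crowding, members were therefore lower than others at each count of 1 or more neighbours, with differences in median fold from -0.35 to -0.77, against -2.76 between all members and all others.

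The few members without a close neighbour did not share the low fold. For the 353 members with no other peak within 5000 bp, the median fold was 14.1, above the 12.1 of the 39590 other peaks of that kind. Their median width was 267 bp, against 207 bp. No base lay between the peak and its nearest neighbour for 526 members (5.72%), compared with 2.12% of other peaks. Touching members were narrow, with a median of 101 bp, and had a median fold of 5.63. Merging touching peaks before counting left 474 dense windows, and the median fold of members then stood 2.79 below that of other peaks. Merging all peaks under 150 bp apart left 414 of the 553 dense windows, with a difference in median fold of -2.81.

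**Figure D4:**
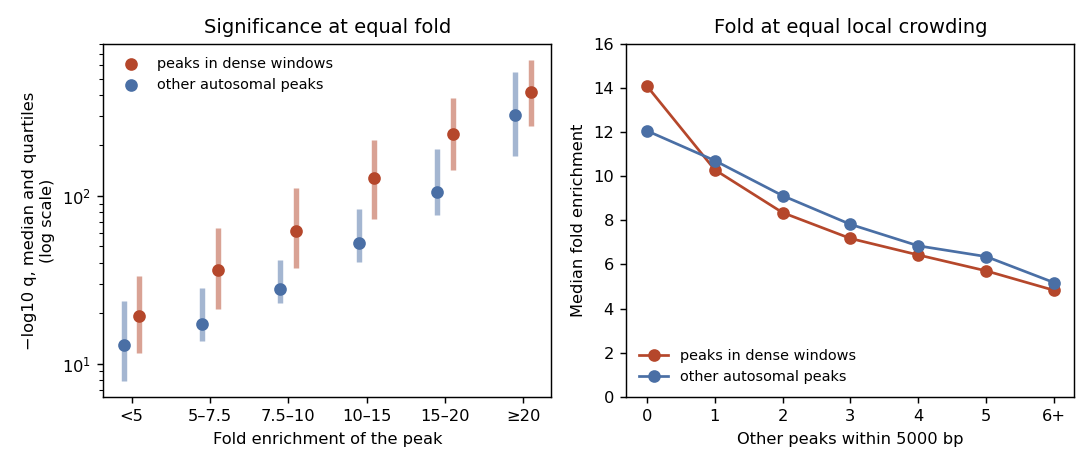
Left, −log10 q (median and quartiles, log scale) of members (red) and other autosomal peaks (blue) in 6 bands of fold; right, median fold by the number of other peaks within 5000 bp. At a fold of 10 to 15 the medians of −log10 q are 128 and 52.4, while at equal crowding the 2 lines of fold lie close together, apart from peaks with 0 neighbours.

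The strongest peak of a window by fold shows what a dense window reaches at its top. Over the 553 dense windows its fold had a lowest value of 6.72, a median of 22.0 and a highest value of 38.0. Windows of 10 to 14 peaks had a median of 24.1 and windows of 5 to 9 a median of 23.7. A maximum over more peaks would be higher if all peaks came from the same distribution, yet the dense windows had the lower median, on 17 of 19 chromosomes against windows of 10 to 14. Against all windows of 1 to 14 peaks, whose median was 20.5, the dense windows were higher, so the direction depends on the windows compared. The strongest peak had a fold of 20 or more in 351 dense windows (63.5%), where 52.5% of all windows with a peak reached that. The share was 74.2% for windows of 10 to 14 peaks and 44.4% for windows of 20 or more.

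The strongest peak stood well above the typical peak of its window. It had a median of 2.93 times the median fold of its window (quartiles 2.34 and 3.72), compared with 2.59 times in windows of 10 to 14. Its median width was 393 bp, well above the 194 bp of all members. The second strongest peak had a median fold of 17.2 and lay a median of 15839 bp away. The peak with the highest fold was also the one with the highest −log10 q in 313 of 553 dense windows (56.6%), so in the other 240 the choice of measure changes which peak leads. The median of the highest −log10 q per window was 473 in dense windows and 428 in windows of 10 to 14.

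The 10 windows with the most peaks show these features one by one. The densest, on chr17:34300001-34350000, held 26 peaks whose folds ran from 2.43 over a median of 5.04 to 22.0. A single peak of 460 bp (34320549-34321008) gave that top value, and the next reached only 9.44. On chr2:83600001-83650000, 20 of 25 peaks had a fold below 5 and the strongest reached 8.35, so this window was weak throughout. On chr3:87400001-87450000, 25 peaks had a median fold of 4.27, but the strongest, at 18.1, had a −log10 q of 586. The 25 peaks on chr9:45150001-45200000 had a higher median fold, 7.104, with 2 nearly equal leading peaks at 15.7 and 15.7, which lay 41703 bp apart.

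The window chr2:156950001-157000000 held 24 peaks, with leading peaks at folds of 24.0 and 23.6 near opposite ends of the window, 47746 bp apart. On chr11:53650001-53700000, 24 peaks covered 13.6% of the window, and a peak of 681 bp led with a fold of 20.4. The windows on chr2:90900001-90950000, chr4:134450001-134500000 and chr19:41300001-41350000 held 23 peaks each, with median folds of 6.16, 6.92 and 5.81. The first of these was led by a peak 729 bp wide with a −log10 q of 1122. On chr1:80600001-80650000, 22 peaks had a median fold of 7.80, the highest of the 10. In 6 of these 10 windows no peak reached a fold of 20.

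**Figure D5:**
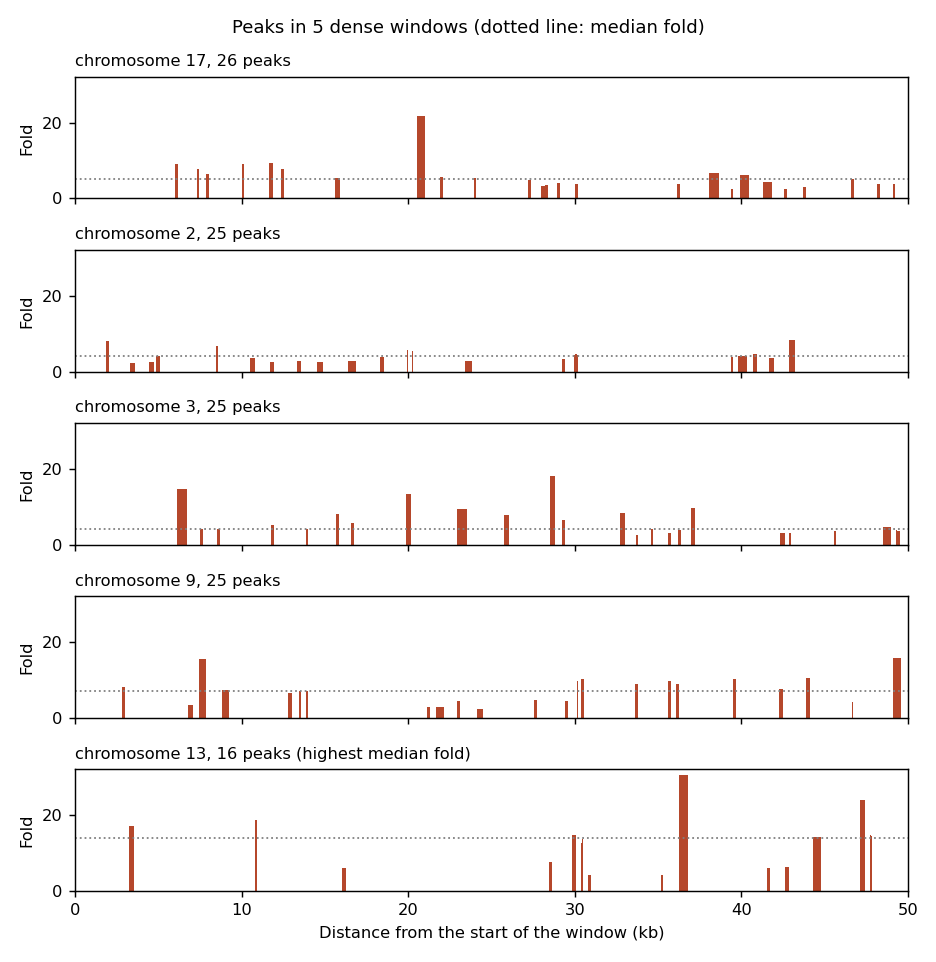
Peaks of 5 dense windows, drawn to scale by their distance from the window's start in kb, with the fold enrichment as bar height and the window's median fold as a dotted line. The window of 26 peaks on chromosome 17 has 1 tall peak at a fold of 22.0 above many near its median of 5.04, and the window with the highest median fold, on chromosome 13, has fewer and taller peaks.

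Dense windows differed widely in their typical strength. The median fold of a window ran from 2.48 to 14.1, with a median of 7.53 and quartiles of 6.19 and 8.58, and it was below the autosomal median of 9.84 in 497 of 553 windows. The highest values belonged to windows just past the threshold, with 15 or 16 peaks. They were 14.1 on chr13:105400001-105450000, 14.03 on chr14:27050001-27100000, 12.7 on chr6:135300001-135350000, 12.6 on chr7:97950001-98000000 and 12.4 on chr4:126050001-126100000. The chromosome 6 window held 6 peaks with a fold of 20 or more, the most of any dense window.

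At the low end stood chr12:85650001-85700000, whose 19 peaks had a median fold of 2.48. Its strongest peak had a fold of 24.1, or 9.73 times that median. The adjacent windows chr11:119300001-119350000 and chr11:119350001-119400000 had medians of 2.70 and 2.89. The windows on chr2:164250001-164300000 and chr19:5850001-5900000 followed, with 3.16 and 3.27. These 5 windows held 18 to 22 peaks each.

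The 5 highest folds among the members ran from 35.7 to 38.0. The highest fold, 38.0, was on chr8:47394318-47394769, in a window of 15 peaks whose lowest fold was 6.09. The next were 36.1 on chr13:120093327-120093603, 36.0 on chr19:11221651-11222062, 35.8 on chr17:27766162-27766554 and 35.7 on chr7:79816504-79816831. All 5 lay in windows of 15 to 17 peaks and were 277 to 452 bp wide. Most dense windows were of that size, since 341 of the 553 held 15 or 16 peaks and 79 held 17. A window of 20 peaks, chr4:3750001-3800000, reached a fold of 35.58, just below these 5. In each of the 5 windows the second peak was far lower: on chromosome 13 it had a fold of 9.09, and the other 4 windows had second folds of 17.0 to 22.4.

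Windows just inside and just outside the threshold were much alike in fold and width. The 193 windows of 15 peaks had a median fold of 8.07 over 2895 peaks, a median width of 194 bp and, for their strongest peaks, a median fold of 23.7. In the 279 windows of 14 peaks these values were 7.94, 196 bp and 22.5. By significance they were less alike, with a median −log10 q of 56.2 inside and 49.9 outside. The autosomal upper quartile of −log10 q was reached by 30.0% of peaks inside and 25.9% outside, beside 25% of all autosomal peaks.

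The deposited scores restate the significance, but whether a score is a whole number is another trait that did not enter the rule. A score is close to 10 times the −log10 q of its peak (median ratio 9.99), and many scores are not whole numbers. One class of score became whole (within 1e-06) only when multiplied by 20 and by no smaller whole number; how these values arose is not known from the sources used. Among members 1331 scores (14.5%) were of this kind, beside 14.6% of all autosomal peaks, so there was no difference beyond counting error (Wilson 95% interval 13.8% to 15.2%). Within bands of fold the shares were close at both ends and differed between them. Below a fold of 5 the share was 1.39% for members and 1.26% for others. It was 7.06% for members with folds from 5 to 7.5 and 3.03% for others, 15.2% and 7.01% from 7.5 to 10, and 27.0% and 15.4% from 10 to 15, while at 20 or more it was 34.9% and 36.9%. Scores that were already whole made up 15.8% of members (Wilson 95% interval 15.1% to 16.6%), beside 17.7% of all autosomal scores. Within the band of folds from 5 to 7.5 they made up 18.6% for members and 28.5% for others. The median −log10 q was higher for members in every band of fold, and its part in these shares was not tested.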

How the data were processed

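ATAC-seq peaks of 19 mouse macrophage samples in 10 groups were analysed from 1 consensus list; samples were grouped by title. MACS2 2.2.7.1, deepTools 3.5.1, STAR 2.7.9a and Picard 2.27.4 are named with the build mm39, per the submitters' processing notes. The sources used here do not give how libraries were combined, how reads were shifted or which peak threshold applied. Each deposited peak has a score, a fold (a ratio), a −log10 q and a summit offset, read from the standard layout because no header names the columns. Coordinates were read as counted from 1, since 74 summit offsets would otherwise lie outside their peak.

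Members were peaks of autosomal 50000 bp windows with 15 or more midpoints. Medians, quartiles and shares were computed with Python 3.11.15, numpy 2.4.6, pandas 2.3.3 and scipy 1.17.1, and figures with matplotlib 3.10.9. The functions were checked on a simulated list with known windows. No test between samples was possible, and none was run between peaks. Windows were named by fixed rules: most peaks (10), highest and lowest median fold (5 each), highest strongest peak (5) and longest runs; of the 10 equal runs, the 6 with most peaks were named, plus 1 for its median fold, a choice made after the values were seen. The members and lists were chosen with earlier results of these data known. Gene, promoter and microRNA tables of another build, GRCm38.p6, were not used, so no gene is named and no sequence is printed. For the same reason the gene lists and cell type markers drawn up for these windows were not analysed here.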

Additional observations from a re-analysis of the deposited data

Results flagged for a closer look

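Chromosome X lay outside the choice of windows, and its 4 windows of 15 or more peaks are given because they are data that the comparisons did not use. They were 2 windows with 17 peaks, from 9300001 to 9350000 and from 95150001 to 95200000, and 2 with 15, from 19000001 to 19050000 and from 73250001 to 73300000. Their median folds were 7.54, 5.21, 5.78 and 5.55, which lie within the range of the autosomal dense windows. Chromosome X had 897 windows with a peak, so the rate was 0.446 per 100, below the lowest autosomal rate of 0.970 on chromosome 18.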

How the results depend on the processing

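Of 149 alternative values over 10 results, 38 moved by more than 1.5 times (counts) or more than the SD over chromosomes. Another 6 changed sign, 2 of them within that SD, with sign changes of the width difference not counted. These 6 sign changes were all of the strongest peak, except a comparison that took the first peak by position in its place. The small width difference, -2.0 bp, was above 0 in 2 of 17 alternatives and 0 in 2, all 4 within the SD. Members had the lower median fold in all 21 alternatives for that result. The number of windows, share of autosomal peaks, runs of 2 or more and longest run were 1811, 11.8%, 225 and 6 for 25000 bp windows of 8 or more peaks, and 1887, 19.1%, 356 and 6 for a minimum of 12. They were 89, 2.09% and 2 runs for 100000 bp windows of 30 or more, and 133, 1.89% and 7 runs for a minimum of 18. With peaks of −log10 q below the median left out, 23 windows (0.522% of peaks) were left, with 0 runs and 1 as the longest. With folds of 10 or more 0 windows were left, so no other value could be given. Members minus others, the median fold was -2.21 at 12, -3.67 at 18 and -6.92 for the stricter list, where width differed by -20.0 bp. By width class it was -1.95 under 150 bp, -5.45 from 300 to under 600 bp and -6.60 from 600 bp. The share with a fold of 20 or more differed by -8.10, -11.6 and -26.1 points at 12, 18 and the stricter list. Against windows of 1 to 4 peaks the differences were -3.60 in fold, -12.6 points, 15.49 in −log10 q and 6.14 in the strongest peak. Against 10 to 14 they were -1.67, -5.02 points, 1.70 and -2.12. The strongest peak was 1.42 higher in dense windows in the main comparison, but also lower by other choices. It differed by -1.73 against 5 to 9 peaks, -0.0863 for 100000 bp, -0.79 at 18 and -5.44 for the stricter list. The first peak by position, which need not be the strongest, differed by -2.28. The ratio of −log10 q at folds from 10 to 15 was 1.90 at 12 and 2.96 at 18. The causes were not tested. The results on −log10 q and the window left out on chromosome 9 were added after seeing the data. No paired analysis was possible because no value belongs to a single sample. How far sequencing depth sets which weak peaks were called, and so which windows reach 15, was not tested.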

Other observations

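Outside the assembled chromosomes, the unplaced sequence Un_JH584304v1 held 32 peaks in its first 50000 bp, with a median fold of 3.44, and 29 in the next 50000 bp, with a median fold of 5.41. Both numbers are above the 26 peaks of the densest autosomal window. These windows belong to no comparison above.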
